A study of Mus musculus with 9 samples.

Results

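Osteoclast precursors read a costimulatory signal through receptors that cannot signal alone and borrow the immunoreceptor tyrosine-based activation motif (ITAM) of a partner protein. The genes described here are 10 named components of that signal, of 13526 genes in the expression table. These genes were chosen by name for their place in the pathway, with earlier results of these data known. They are 4 receptors (Oscar, Trem2, Siglec15 and Sirpb1a), the adaptors Tyrobp (DAP12) and Fcer1g (the Fc receptor γ chain), and the enzymes Syk, Btk, Tec and Plcg2. Bulk RNA-Seq was available for 9 libraries of bone marrow (BM) macrophages from C57BL/6 mice, 8 weeks old by the labels, with no engineered allele. All macrophages had first been cultured for 3 days in M-CSF at 10 ng/ml, which keeps macrophages alive and dividing. The 3 control libraries had no RANKL, the 3 RANKL libraries had received RANKL, the cytokine that drives osteoclast formation, for 48 hours, and 3 libraries had received RANKL together with recombinant mouse cystatin E/M (rmCst6), an inhibitor of cysteine proteases, for the same time. Whether the control macrophages were kept for those 48 hours is not stated in the labels, nor are the doses of RANKL and rmCst6 or whether replicates came from separate mice, so the p-values below cover only the scatter of these libraries, which may be technical.

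In this pathway a receptor binds its ligand, Src-family kinases phosphorylate the ITAM tyrosines of the adaptor, and Syk docks there through its paired SH2 domains. Syk, with the Tec-family kinases Btk and Tec, then activates phospholipase Cγ2, the product of Plcg2, whose product IP3 releases calcium from internal stores. Calcium activates the phosphatase calcineurin, which sends NFATc1, the transcription factor that runs the osteoclast program, to the nucleus. RANK, the RANKL receptor, joins this route through Btk and Tec. Mice without both DAP12 and the Fc receptor γ chain develop osteopetrosis, because their osteoclasts do not mature.

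The values are log2 normalized expression, in which 0 means listed at 0. All 10 members passed a filter of at least 10 normalized units in at least 3 of 9 libraries, and Siglec15 and Oscar passed it only through the libraries with RANKL, so their differences from the RANKL libraries, both of control and of RANKL plus rmCst6, were in part fixed by the filter. Their p-values are therefore also given with no filter, over all 13526 genes, and the counts of members also without these 2. Macrophage markers (8 of 8 measured) were high in all libraries, with summed linear levels of 9.66e+05 to 1.14e+06 in control, 4.58e+05 to 5.04e+05 with RANKL and 5.41e+05 to 5.96e+05 when rmCst6 was added. Osteoclast markers (8 of 8) summed to 1792 to 1888, 4.94e+05 to 6.41e+05 and 8720 to 11679, and Calcr was listed at 0 in all 3 control libraries. Linear values per library summed to 2.77e+07 to 2.88e+07 in control, 2.77e+07 to 2.80e+07 with RANKL and 3.04e+07 to 3.14e+07 with RANKL plus rmCst6. The libraries with rmCst6 thus had the highest sums. These sums come from normalized values and are not read totals, so the sequencing depth is unknown. Pearson's r between libraries was 0.989 to 0.991 within groups and 0.859 to 0.903 between groups.

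The 250 bases upstream of the start site are shown for Oscar, Trem2 and Fcer1g, a receptor that fell, a receptor that rose and an adaptor that rose when rmCst6 was added to RANKL. They come from RefSeq on GRCm38.p6 and are written 5′ to 3′ along the gene's strand. Oscar is read from the minus strand at chr7:3616158-3616407, Trem2 from the plus strand at chr17:48346151-48346400, and Fcer1g from the minus strand at chr1:171234350-171234599. Capitals mark, on either strand, matches to 6 short motifs of factors active in macrophages or osteoclasts: the PU.1 core GAGGAA, the NFAT core GGAAAA, the MITF M-box TCACATG, the AP-1 motif TGANTCA, the interferon-stimulated response element (GAAA, any 2 bases, GAAA) and the STAT motif TTCNNNGAA.
Oscar: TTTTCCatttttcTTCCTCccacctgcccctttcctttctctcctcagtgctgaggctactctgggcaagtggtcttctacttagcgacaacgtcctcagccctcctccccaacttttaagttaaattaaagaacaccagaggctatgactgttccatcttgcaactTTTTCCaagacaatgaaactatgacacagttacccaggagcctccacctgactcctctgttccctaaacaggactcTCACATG
Trem2: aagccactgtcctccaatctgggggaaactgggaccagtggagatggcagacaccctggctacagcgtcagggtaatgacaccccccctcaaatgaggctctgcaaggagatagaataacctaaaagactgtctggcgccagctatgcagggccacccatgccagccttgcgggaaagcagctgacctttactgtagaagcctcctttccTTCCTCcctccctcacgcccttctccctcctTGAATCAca
Fcer1g: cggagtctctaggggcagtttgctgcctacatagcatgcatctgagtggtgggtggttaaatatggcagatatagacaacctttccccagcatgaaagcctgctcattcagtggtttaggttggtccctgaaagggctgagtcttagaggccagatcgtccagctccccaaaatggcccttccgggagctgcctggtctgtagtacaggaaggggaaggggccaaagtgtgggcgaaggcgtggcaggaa

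The Oscar window held 4 matches: 1 to the PU.1 core, 2 to the NFAT core and 1 to the M-box, which ended at the base before the start site. Trem2 had 1 PU.1 core and 1 AP-1 match, and Fcer1g had none of the 6 motifs. Of the 10 members, 8 had an entry (9 start sites), and Siglec15 and Tyrobp had none. Sirpb1a had 1 interferon-stimulated response element and 1 STAT motif. The second Syk start had a PU.1 and an NFAT core that shared bases, and the windows of Btk, Tec, Plcg2 and the first Syk start held no match. Such letters are common: of 32851 windows of this length, 23.3% held the PU.1 core, 20.4% the NFAT core, 3.50% the M-box, 6.75% the AP-1 motif, 2.98% the interferon-stimulated response element and 7.02% the STAT motif. A match describes the letters and is not a measured binding site.

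When rmCst6 was added to RANKL, the receptors Oscar and Siglec15 fell close to the bottom of the scale, Trem2 and Sirpb1a rose, and of the adaptors Fcer1g rose 4.10-fold while Tyrobp did not pass the test. Syk, Btk, Tec and Plcg2 each fell by 1.30-fold or less on the deposited scale, and Syk by more after quantile normalization (-0.56 log2 units). In limma, fitted to all 9 libraries with Benjamini-Hochberg adjustment over 12932 genes, 9 of the 10 members had an adjusted p under 0.05 and are referred to as called (3 higher, 6 lower), beside 72.7% of all genes tested (34.8% higher and 38.0% lower). The 9 called members were also those whose groups did not overlap, as in 75.9% of all genes. The members' median log2 fold change was -0.18, beside -0.017 over all genes. Without Oscar and Siglec15, 7 of 8 were called (3 higher, 4 lower), with a median of -0.071. Of all 10 members, 4 were called with at least a 2-fold change, Oscar, Siglec15, Sirpb1a and Fcer1g. Beside them, 28.5% of all genes had a change of that size, called or not. The filter in part fixed this for Oscar and Siglec15, and among the other 8 only Sirpb1a and Fcer1g reached it. With so large a share of all genes called, the number of members called is near the background, and the sizes and directions of the single members carry the description. Bulk values cannot tell fewer cells of a type from less RNA per cell.

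**Figure D1:**
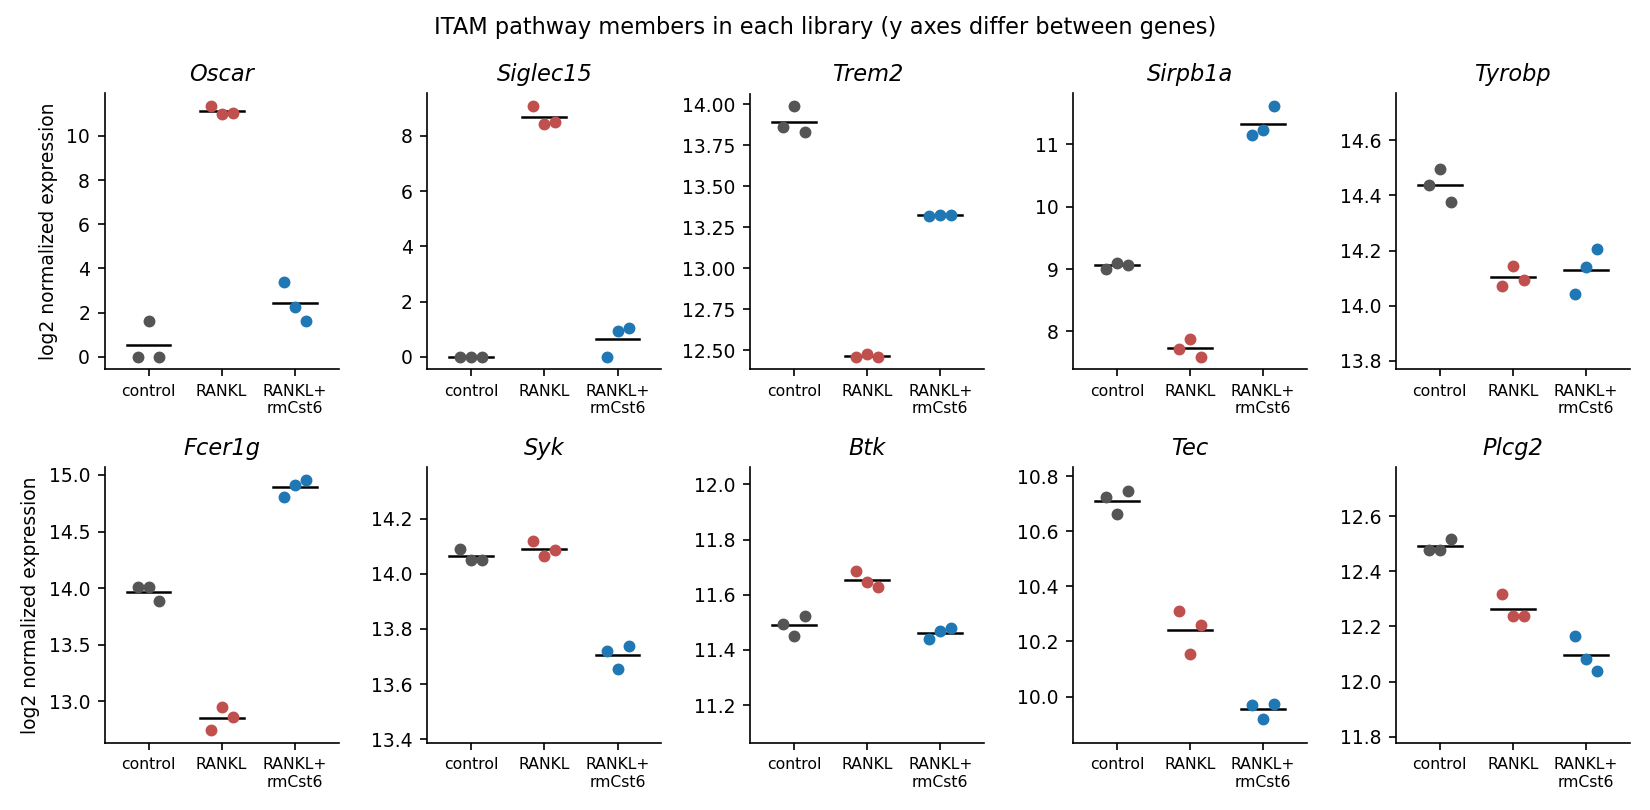
Log2 normalized expression of the 10 genes in each library, with 3 points per group (control grey, RANKL red, RANKL plus rmCst6 blue) and a bar at the group mean; y axes differ between genes. Oscar and Siglec15 stand high only in the RANKL libraries, at 8.43 or above, whereas Trem2, Sirpb1a and Fcer1g are lowest there, and Tyrobp overlaps between the RANKL libraries and those with rmCst6.

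Oscar encodes a collagen receptor that pairs with the Fc receptor γ chain, and it lies on the minus strand of GRCm38 at chr7:3609813-3616157, with 5 exons in its principal transcript. Its log2 values were 0, 1.60 and 0 in the control libraries, 11.35, 10.99 and 11.03 with RANKL alone, and 3.36, 2.23 and 1.64 with RANKL plus rmCst6. The RANKL libraries stood more than 7 log2 units above all others, and the highest control library lay just under the lowest library with rmCst6. The log2 fold change was 10.59 ± 0.48 for RANKL against control (SE; adjusted p = 9.18e-10, limma) and -8.71 ± 0.48 for RANKL plus rmCst6 against RANKL (adjusted p = 4.62e-09), or 419-fold lower on this scale. With no filter the adjusted p-values were 8.32e-10 and 4.24e-09. Because the lower values are so near 0, the size depends on the scale: with a further 8 units added before the logarithm, the difference was -7.35. Against control, Oscar with RANKL plus rmCst6 was 1.88 log2 units higher (adjusted p = 0.00379), a difference between values that were mostly below the filter. Osteoclast markers had the order of Oscar and Siglec15 in their summed levels, as given above. All 8 rose with RANKL and fell with rmCst6 against RANKL, but not all had that order. With RANKL plus rmCst6 against control, 5 were higher, 1 was lower and 2 were not called. Atp6v0d2 (mean log2 9.79 in control and 7.07 with RANKL plus rmCst6) and Dcstamp (5.26 and 4.92) lay below control. NK and T cell markers (2 of 8 measured, none at 0 in a whole group) summed to 10.3 to 32.0 in control, 66.5 to 98.3 with RANKL alone and 29.9 to 44.6 after rmCst6. The 2 went opposite ways, Trac with mean log2 values of 3.08, 6.17 and 2.04 and Nkg7 with 3.78, 2.50 and 5.16, and neither had the order of Oscar. The part of these cells in Oscar or Siglec15 was not tested.

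Siglec15, a sialic acid-binding lectin that pairs with DAP12 and is expressed on osteoclasts, lies at chr18:78043614-78057395 on the minus strand, with 6 exons. It was listed at 0 in all 3 control libraries, reached 9.09, 8.43 and 8.52 with RANKL, and was 0, 0.95 and 1.03 with RANKL plus rmCst6. The RANKL libraries were thus set apart from the other 6. With rmCst6 it was lower by a log2 fold change of -8.02 ± 0.40 than with RANKL alone, or -5.44 with the further 8 units added. The filter let Siglec15 pass through the 3 RANKL libraries alone, so the adjusted p of 1.74e-09 is no support for this fall, and with no filter it was 1.44e-09. No fold is given against the control libraries at 0 (adjusted p = 8.81e-10 for RANKL against control with no filter). RANKL plus rmCst6 did not pass the test against control (adjusted p = 0.159), but it passed without replicate 1 of that group, the library at 0 (0.99 log2 units, adjusted p = 0.0349).

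Trem2, a lipid and lipoprotein receptor of macrophages and microglia that signals through DAP12, lies on the plus strand at chr17:48346401-48354147, with 5 exons. The control libraries had log2 values of 13.86, 13.99 and 13.83, the RANKL libraries 12.46, 12.48 and 12.46, and the libraries with RANKL plus rmCst6 13.32, 13.32 and 13.32. The groups did not overlap, and rmCst6 placed Trem2 between RANKL and control. It was 2.69-fold lower with RANKL than in control (log2 fold change -1.43 ± 0.045, adjusted p = 4.02e-11), and it was 1.81-fold higher with rmCst6 than with RANKL alone (0.86 ± 0.045, adjusted p = 3.03e-09). It stayed 1.49-fold under control (adjusted p = 1.69e-07). The direction of Trem2 was thus the reverse of that of Oscar and Siglec15 in both comparisons. Of the 8 macrophage markers, 7 fell and 1 rose with RANKL, and 3 rose and 1 fell with rmCst6 against RANKL, and their part in Trem2 was not tested.

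Sirpb1a encodes a signal-regulatory protein β, a DAP12-coupled receptor, on the minus strand at chr3:15371653-15426520. Its log2 values were 9.0, 9.10 and 9.07 in control, 7.72, 7.88 and 7.59 with RANKL alone, and 11.15, 11.23 and 11.62 with RANKL plus rmCst6. It was highest in all 3 libraries with rmCst6, with no overlap between groups. The change was a 2.51-fold fall with RANKL (adjusted p = 3.60e-07) and a 12.1-fold rise with rmCst6 against RANKL (log2 fold change 3.60 ± 0.11, adjusted p = 2.04e-11), to 4.84-fold above control (adjusted p = 1.87e-09). The identity of this signal is uncertain, since 54.5% of the 31-base words of Sirpb1a transcripts occur in other genes, 50.8% in Sirpb1c alone, and the estimation of abundance could divide shared reads among them. Sirpb1b and Sirpb1c differed the same way (log2 fold changes of 3.75 and 2.86 with rmCst6 against RANKL, and -1.28 and -1.30 with RANKL against control). No such word was shared by 8 of the other members, and Syk shared 0.0319%.

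The adaptors Tyrobp and Fcer1g carry the ITAM itself, and both were lower with RANKL than in control, by different amounts. Tyrobp (plus strand, chr7:30413760-30417585, 5 exons) had log2 values of 14.44, 14.50 and 14.38 in control, 14.07, 14.14 and 14.09 with RANKL alone, and 14.04, 14.14 and 14.21 with RANKL plus rmCst6. The control libraries were above the other 6, which overlapped. Tyrobp was 1.26-fold lower with RANKL (-0.33 ± 0.052, adjusted p = 7.88e-05), and with rmCst6 the difference from RANKL was 0.026 ± 0.052 (adjusted p = 0.664). This last value depends on scaling: after quantile normalization it was -0.25 and called (adjusted p = 0.000598).

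Fcer1g (minus strand, chr1:171229572-171234365, 5 exons) had 14.01, 14.01 and 13.89 in control, 12.75, 12.95 and 12.86 with RANKL alone, and 14.80, 14.91 and 14.96 with RANKL plus rmCst6. RANKL libraries were lowest and those with rmCst6 highest, with no overlap. It fell 2.17-fold with RANKL (-1.12 ± 0.062, adjusted p = 5.71e-09), rose 4.10-fold with rmCst6 against RANKL (2.04 ± 0.062, adjusted p = 1.37e-11), and ended 1.89-fold above control (0.92, adjusted p = 3.22e-08). Neutrophil markers moved with Fcer1g and Sirpb1a: their summed level (10 of 10 measured) was 17381 to 23975 in control, 5902 to 9807 with RANKL alone and 46784 to 54478 with RANKL plus rmCst6, and 9 of 10 fell with RANKL and 9 of 10 rose with rmCst6. Megakaryocyte and platelet markers (6 of 6 measured) summed to 8166 to 8977, 686 to 988 and 6408 to 8769, with Gp1bb at 0 in all 3 control libraries. Most of this sum was Pf4 (mean log2 values of 13.03, 9.48 and 12.81). Mast cell and basophil markers (3 of 7 measured) summed to 32.2 to 89.1, 53.0 to 108 and 119 to 135, and no measured one was at 0 in a whole group. They did not move together: Kit, the highest, had mean log2 values of 5.59, 5.41 and 6.76. Mcpt8 had 2.21, 0.93 and 3.48, and Gata2 had 2.57, 4.94 and 3.48. Of the macrophage markers, Adgre1 (mean log2 values of 15.91, 14.12 and 16.57) and Itgam (14.78, 14.47 and 14.95) also had the order of Fcer1g. The other macrophage markers did not. The part of any of these cells in Fcer1g and Sirpb1a was not tested.

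A ratio within a library asks whether 2 genes that work together moved together. Any single scale factor of a library cancels in it, except where a value lies near 0. Of 6 ratios in 2 comparisons, each was tested by a two-sided exact permutation test over 3 against 3 libraries, whose smallest p is 0.1, so no ratio could pass 0.05. Fcer1g relative to Tyrobp had log2 values of -0.43, -0.48 and -0.49 in control, -1.33, -1.19 and -1.23 with RANKL alone, and 0.76, 0.77 and 0.75 with RANKL plus rmCst6. Every library with rmCst6 thus lay above every other, and the ratio was 4.03-fold higher than with RANKL (difference 2.01, exact permutation p = 0.1, adjusted p = 0.109 over the 12 tests). With RANKL it was 1.72-fold lower than in control (difference -0.78, exact permutation p = 0.1).

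Trem2 relative to Tyrobp, its adaptor, was -0.54 ± 0.036 in control, -1.64 ± 0.027 with RANKL and -0.81 ± 0.081 with rmCst6 (SD, 3 libraries each), again without overlap. Oscar relative to Fcer1g, its adaptor, differed by -10.75 log2 units between RANKL plus rmCst6 and RANKL. The receptor and its adaptor thus moved in opposite directions there, and so did they with RANKL against control, where the ratio differed by 11.71. Siglec15 relative to Tyrobp differed by -8.04 between RANKL plus rmCst6 and RANKL. These differences gave an exact permutation p of 0.1 each, the smallest possible. Oscar and Siglec15 passed the filter only through libraries with RANKL and lay near 0 outside the RANKL group. The separation of their ratios was therefore in part fixed by the filter, and its size depends on the scale.

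**Figure D2:**
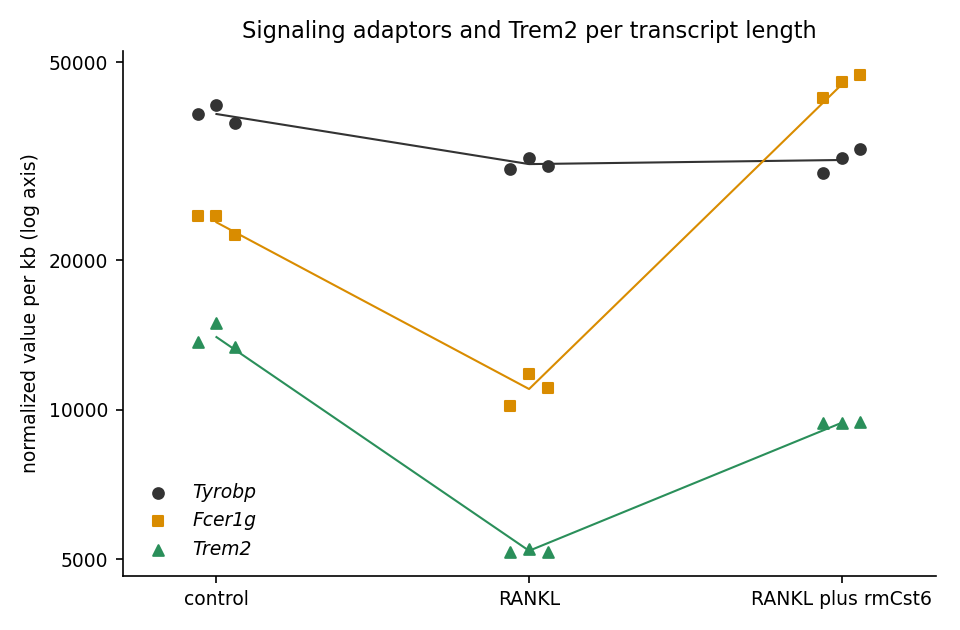
Normalized value per kb of principal transcript (log axis) of Tyrobp (circles), Fcer1g (squares) and Trem2 (triangles) in the 3 libraries of each group, with lines through the group means. Fcer1g lies under Tyrobp in control and RANKL libraries and above it in all 3 with RANKL plus rmCst6, at means of 45133 against 31812, and Trem2 lies lowest of the 3 in every group.

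The enzymes changed little beside the receptors. Syk (plus strand, chr13:52583173-52648792, 14 exons), the kinase that docks on the phosphorylated ITAM, had log2 values of 14.09, 14.05 and 14.05 in control, 14.12, 14.06 and 14.09 with RANKL alone, and 13.72, 13.66 and 13.74 with RANKL plus rmCst6. The control and RANKL libraries overlapped (0.025, adjusted p = 0.590), and all 3 with rmCst6 lay lower. Its fall was 1.30-fold against RANKL (-0.38 ± 0.041, adjusted p = 2.60e-06) and 1.28-fold against control (adjusted p = 5.22e-06). The direction for RANKL against control is not fixed by these data, since it turned to -0.081 after median centring and -0.012 after quantile normalization, neither called.

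Btk, on the minus strand of chrX:134542336-134583570, and Tec, on the minus strand of chr5:72755716-72868483, are sister kinases with 19 exons each. In the annotation Btk, Tec and Plcg2 each overlap 1 other gene model (a pseudogene, an unverified transcript and a microRNA). Btk had log2 values of 11.50, 11.45 and 11.52 in control, 11.69, 11.65 and 11.63 with RANKL alone, and 11.44, 11.47 and 11.48 with RANKL plus rmCst6. It was highest with RANKL and overlapped between the other groups. The rise with RANKL was 1.12-fold (0.16, adjusted p = 0.00364) and was no longer called after median centring (0.057, adjusted p = 0.240), and the fall with rmCst6 was 1.14-fold (-0.19 ± 0.042, adjusted p = 0.00120). Tec had 10.72, 10.66 and 10.75 in control, 10.31, 10.16 and 10.26 with RANKL alone, and 9.97, 9.92 and 9.97 with RANKL plus rmCst6. It thus stepped down from group to group without overlap, 1.38-fold with RANKL (-0.47, adjusted p = 8.62e-06) and a further 1.22-fold with rmCst6 (-0.29 ± 0.056, adjusted p = 0.000525), to 1.69-fold under control (adjusted p = 8.96e-08). Tec relative to Btk was lower with RANKL than in control (difference -0.63, exact permutation p = 0.1), and with rmCst6 the ratios overlapped those with RANKL (-0.096, exact permutation p = 0.2).

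Plcg2 (plus strand, chr8:117498291-117635142, 33 exons), whose product makes the IP3 that releases calcium, had log2 values of 12.48, 12.48 and 12.52 in control, 12.32, 12.24 and 12.24 with RANKL alone, and 12.17, 12.08 and 12.04 with RANKL plus rmCst6. Like Tec it was lower in each group in turn, without overlap. The falls were 1.17-fold with RANKL (-0.23, adjusted p = 0.000656) and 1.12-fold with rmCst6 against RANKL (-0.17 ± 0.046, adjusted p = 0.00515), and it was 1.31-fold under control with both (adjusted p = 5.74e-06). Plcg2 relative to Syk was -1.57 in control, -1.83 with RANKL and -1.61 with rmCst6 (both differences at an exact permutation p of 0.1).

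**Figure D3:**
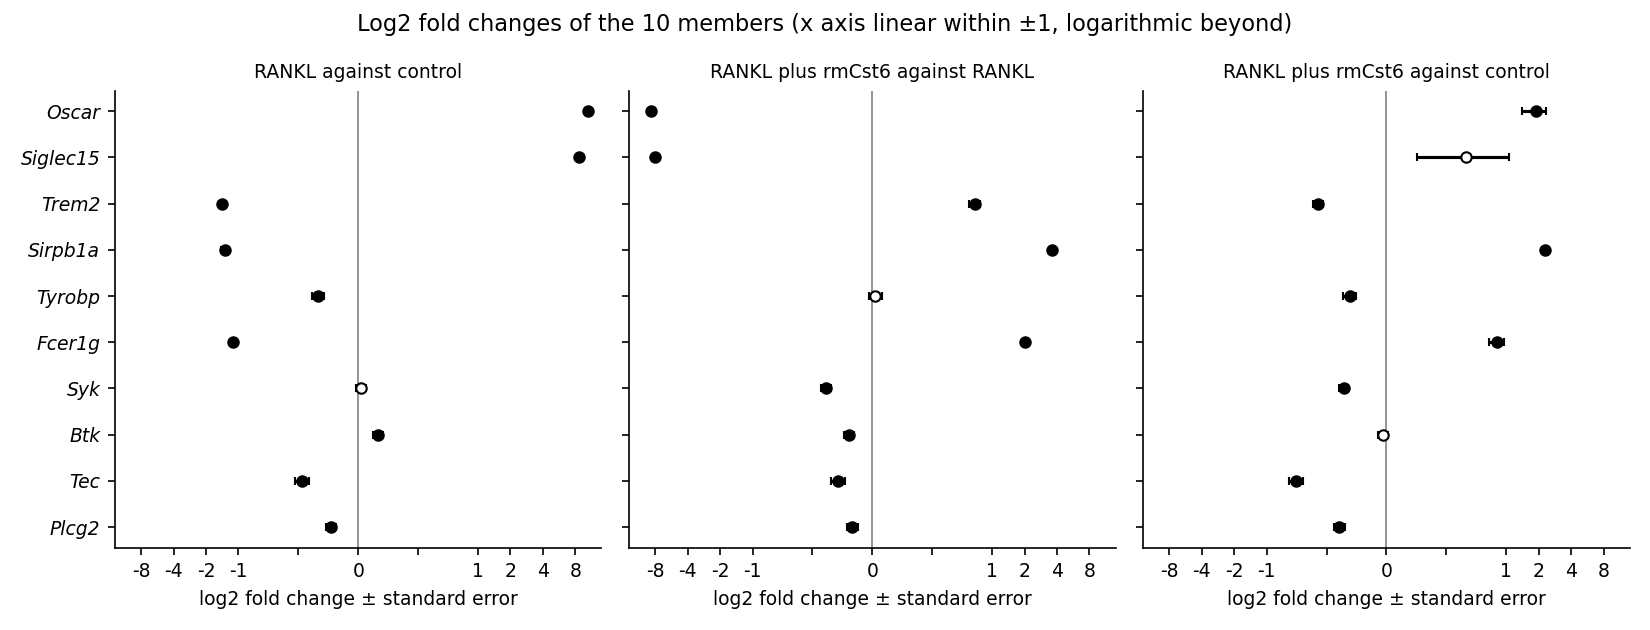
Log2 fold changes (x axis, linear within ±1 and logarithmic beyond) of the 10 genes in the 3 comparisons, with limma standard errors as bars and filled points for an adjusted p under 0.05. With rmCst6 against RANKL, Oscar (-8.71) and Siglec15 (-8.02) lie far to the left, Sirpb1a (3.60), Fcer1g (2.04) and Trem2 (0.86) to the right, and the enzymes lie between -0.38 and -0.17.

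With RANKL alone, the comparison that shows the pathway during osteoclast formation, 9 of 10 members were called against control (3 higher and 6 lower), beside 72.5% of all genes (36.6% higher and 35.9% lower). The groups of those 9 members did not overlap, as in 75.4% of all genes. The members that rose were Oscar, Siglec15 and Btk, and Syk did not pass. Without Oscar and Siglec15, 7 of 8 were called (1 higher, 6 lower), with a median of -0.40. The median log2 fold change of all 10 was -0.28, beside -0.014 over all genes, which becomes -0.12 when each library is centred on its median. RANKL plus rmCst6 differed from control in 8 members (3 higher and 5 lower), beside 71.7% of all genes (36.7% higher and 35.1% lower), with a median of -0.17 beside 0.012. The groups of these 8 did not overlap, again as in 75.4% of all genes. Of all 10, Btk (-0.028, adjusted p = 0.559) and Siglec15 were the members not called there. Without Oscar and Siglec15, 7 of 8 were called in that comparison (2 higher, 5 lower), with a median of -0.33. The 3 comparisons share libraries, so a low RANKL value gives at once a fall from control and a rise with rmCst6.

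Levels between genes were compared per kb of the principal transcript. In control, Tyrobp led at 39367 ± 1657 normalized units per kb (SD, 3 libraries), before Fcer1g at 23829 ± 1184 and Trem2 at 14000 ± 834, with Syk at 3194 ± 51.1. Plcg2 (1339), Btk (1132), Tec (629.9) and Sirpb1a (355) followed, and Oscar (0.37) and Siglec15 (listed at 0) were last. With RANKL the first places were Tyrobp (31211 ± 810), Fcer1g (11005 ± 793), Trem2 (5200.2 ± 39.6) and Syk (3251 ± 63.1). Oscar had risen to 1228 ± 177, next to Btk (1268 ± 27.6) and Plcg2 (1144 ± 37.7), and Oscar did not differ from either beyond its spread, whereas Btk lay above Plcg2 by more than theirs. Siglec15 reached 361 ± 93.9, beside Tec at 456 ± 25.0, and the SD ranges around these means overlapped. With RANKL plus rmCst6, Fcer1g stood first at 45133 ± 2471 and Tyrobp second at 31812 ± 1804. Trem2 (9412 ± 10.5) and Syk (2492 ± 75.6) followed, then Sirpb1a (1737 ± 312), Btk (1110 ± 15.7), Plcg2 (1019 ± 46.0) and Tec (373 ± 7.90). Oscar (2.75 ± 2.06) and Siglec15 (0.57 ± 0.50) were last again. Per kb, the adaptors were thus the most abundant members in all groups, and the receptors ranged over the whole scale. Without division by length, Syk lay above Fcer1g in control (mean log2 14.06 against 13.97) and with RANKL (14.09 against 12.85). Whether the deposited values already hold a correction for length is not stated.

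The genes with the pattern most like that of Oscar over the 9 libraries were Pabpc1 (Pearson's r = 0.998), Camk2a (0.997) and Ccr1 (0.995). For Trem2 they were Gmfg (0.999), Adipor1 (0.998) and Ier5 (0.998), and for Syk they were Bsdc1 (0.997), Clec4a2 (0.994) and Lrrc75a (0.994). These values describe 9 libraries in 3 tight groups and were picked as the highest among the genes tested that reached a mean of 5 on the log2 scale in some group, so they carry no p.

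Around the 10 members, 94 other genes of the pathway were listed by role, with earlier results of these data known, and 85 of them were tested. With rmCst6 against RANKL, 49 rose and 26 fell (88.2% called), beside 72.7% of all genes called (34.8% higher and 38.0% lower). With RANKL against control 26 rose and 48 fell (87.1%), beside 72.5% of all genes (36.6% higher and 35.9% lower), and with RANKL plus rmCst6 against control 43 rose and 26 fell (81.2%), beside 71.7% (36.7% higher and 35.1% lower). Of 21 genes listed as other receptors that pair with ITAM adaptors or carry a hemITAM, 17 rose and 4 fell with rmCst6 (median log2 fold change 1.28). With RANKL 3 of them rose and 16 fell (median -1.17). The list includes Hcst (0.66 with rmCst6), which encodes an adaptor rather than a receptor. Fcgr1, the high-affinity IgG receptor that needs the Fc receptor γ chain, rose by 6.48 (adjusted p = 1.90e-14) after a change of -3.22 with RANKL, and Fcgr4, an activating IgG receptor with the same adaptor, by 3.22. The receptors that fell with rmCst6 were Fcgr3 (-0.92), Clec4n (Dectin-2, -2.77), Pira2 (-0.19) and Clec7a (Dectin-1, -2.33), which carries a hemITAM of its own. Receptors sharing Fcer1g thus went both ways, with Fcgr1 and Fcgr4 higher and Fcgr3 and Clec4n lower. Like the members Fcer1g and Sirpb1a, this list as a whole was higher with rmCst6 than with RANKL. In the libraries with rmCst6 neutrophil markers were also high, and so was the macrophage marker Adgre1. Its mean log2 values were 14.12 with RANKL and 16.57 with RANKL plus rmCst6. The part of these cells in the list was not tested.

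Of 10 Src-family kinases and regulators, 7 rose and 3 fell with rmCst6. Src, required for osteoclasts to resorb bone, was 6.37 in control, 13.18 with RANKL alone and 9.61 with RANKL plus rmCst6 (mean log2 values; -3.58 with rmCst6, adjusted p = 5.71e-12). Lyn (1.15) and the phosphatase Ptprc (CD45, 1.19) rose, opposite to their falls with RANKL. Of 15 scaffolds and exchange factors downstream of Syk, 4 rose, 6 fell and 5 did not pass, with a median of -0.054. The 4 that rose were Pik3ap1 (2.04), Sh3bp2 (1.59), Fyb (1.95) and Vav1 (1.08). Lat, a scaffold best known in T cells and chosen here after its values were seen, was high with RANKL alone, with mean log2 values of 3.76, 8.62 and 3.65 and a change of -4.97 with rmCst6 (adjusted p = 1.14e-09). Of the T cell and NK cell markers given above, Trac had the order of Lat and Nkg7 the reverse, and their part in Lat was not tested. Of 3 other kinases and phospholipases, Plcg1, the sister of Plcg2, fell (-0.85, adjusted p = 2.62e-06), and Bmx (2.50) and Txk (2.00) rose at low levels.

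Of 18 calcium, calcineurin and NFAT genes, 6 rose and 9 fell with rmCst6 (median -0.17). Nfatc1 rose by 2.40 with RANKL and differed by -3.11 with rmCst6 (adjusted p = 1.71e-12), the directions of Oscar, but with RANKL plus rmCst6 it was under control (-0.71, adjusted p = 2.62e-06), where Oscar was above it. Rcan1, a calcineurin regulator and NFAT target, changed likewise (2.22 and -1.81), as did Orai2, a calcium channel subunit (1.32 and -1.02), whereas the IP3 receptor Itpr1 had the reverse signs (-1.16 and 2.02). Of 18 inhibitory receptors, phosphatases and ubiquitin ligases, 13 rose and 3 fell with rmCst6 (median 0.52). Cd300lf (4.64), Lilrb4a (2.37) and Ubash3b (1.62), which encodes a phosphatase that acts on Syk and related kinases, rose, and Cd300a fell (-1.12, adjusted p = 1.80e-10). The fall of Syk, Btk, Tec and Plcg2 with rmCst6 was smaller than that of Nfatc1 or Src, by their log2 fold changes side by side.

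**Figure D4:**
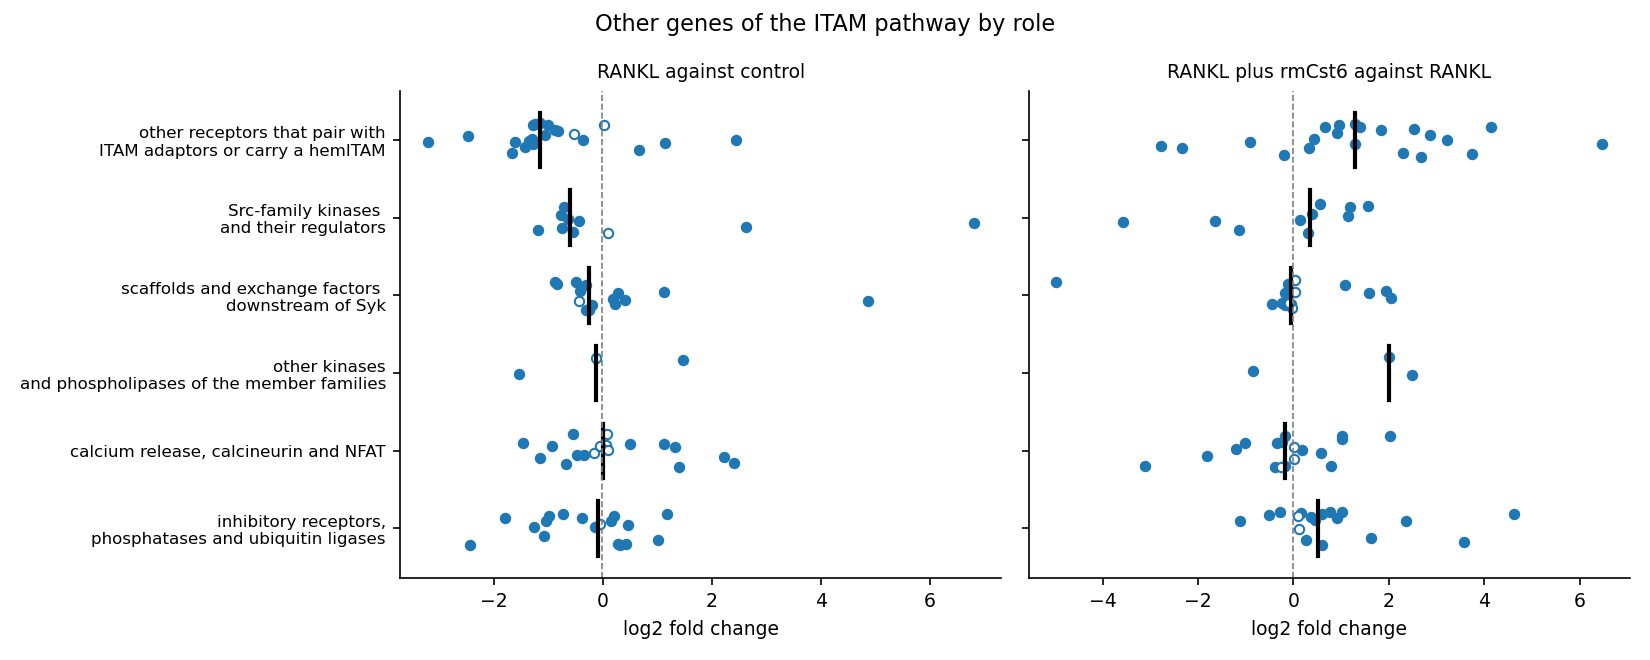
Log2 fold changes (x axis) of 85 other pathway genes by role (rows) for RANKL against control (left) and RANKL plus rmCst6 against RANKL (right); filled points have an adjusted p under 0.05, black bars are list medians and the dashed line is the median of all genes. The list of other receptors has medians of -1.17 on the left and 1.28 on the right, and the scaffolds have medians of -0.26 and -0.054 but reach 4.86 and -4.97 (Lat).

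Markers of B cells and dendritic cells were at low summed levels. B cell markers (2 of 7 measured), listed because Btk, Syk and Plcg2 are also used by B cells, summed to 200.1 to 229.9 in control, 37.1 to 59.2 with RANKL alone and 86.6 to 95.8 with RANKL plus rmCst6. Dendritic cell markers (7 of 7) summed to 214 to 235, 203 to 245 and 209 to 279. The order of the B cell markers (control, then RANKL plus rmCst6, then RANKL) was that of Trem2, and differed from those of Btk, Syk and Plcg2. Their part in any member was not tested.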

How the data were processed

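BM macrophages from C57BL/6 mice were measured by bulk RNA-Seq in 9 libraries, grouped by the sample titles, and each column was matched to its sample by name. The table that the authors deposited holds log2 normalized values of 13526 genes, with a floor at 0 that fits a pseudocount of 1. The submitters' processing notes name Salmon 1.2.1, DESeq2 and GRCm38.p6 with no role or order. Whole reads could not be recovered: for low values (under 12), only 38.0% to 54.5% came within 0.02 of a multiple of the best step. Depth and counting error are therefore unknown, and precision rests on 3 replicates.

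Genes reaching 10 normalized units in at least 3 of 9 libraries were kept (12932, with 594 left out). limma 3.58.1 in R 4.3.3 was used with the 3 group means of the 9 libraries as coefficients and its mean-variance trend, two-sided, adjusted by Benjamini-Hochberg over the genes kept and called at an adjusted p under 0.05. The fit was tested on simulated data. Ratios between members were tested in Python 3.11.15 with an exact permutation test. Gene positions, transcript lengths and shared 31-base words came from GENCODE M21 (GRCm38), which matched all 10 members.

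The members and lists were chosen with earlier results of these data known. Named genes are the members and, per list, up to 4 with the smallest adjusted p for RANKL plus rmCst6 against RANKL that reached a mean of 5 on the log2 scale in some group. Fcgr3, Clec7a, Pira2, Sirpb1c, Bmx, Txk and Lat fall outside that rule and were chosen after their values were seen. Hcst, named as an adaptor in the list of receptors, also falls outside the rule. For Oscar, Trem2 and Syk, the 3 genes with the highest Pearson's r are named. A gene that the rule selects is not reported here. Alternatives were other filters, a further 8 added on the linear scale, median centring, quantile normalization, limma with robust on, with no trend or on the 2 groups alone, the replicate number as a block, and leaving out each library.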

Additional observations from a re-analysis of the deposited data

How the results depend on the processing

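Under all alternatives run, 9 to 10 members were called for RANKL plus rmCst6 against RANKL, 8 to 9 for RANKL against control and 8 to 9 for RANKL plus rmCst6 against control. Leaving out libraries gave the same ranges or narrower ones. A total of 4 member values changed direction: Tyrobp with rmCst6 against RANKL was -0.25 after quantile normalization (adjusted p = 0.000598) and -0.012 to 0.070 when 1 library was left out, negative without RANKL plus rmCst6 replicate 3 (adjusted p = 0.860), and Syk with RANKL against control was -0.081 after median centring and -0.012 after quantile normalization. Btk with RANKL against control was 0.057 and not called after median centring, and Siglec15 against control became called without RANKL plus rmCst6 replicate 1 (0.99). The cause of these was not tested, but centring moved the median of all genes for RANKL against control from -0.014 to -0.12. A further 8 units on the linear scale brought Oscar to -7.35, 7.86 and 0.51 and Siglec15 to -5.44, 5.54 and 0.10 (rmCst6 with RANKL against RANKL, RANKL against control, both against control). Across alternatives the adjusted p of Oscar against control ranged from 0.000353 to 0.0347. Some sizes also depended on scaling: after quantile normalization Syk with rmCst6 against RANKL was -0.56 rather than -0.38. For RANKL plus rmCst6 against control, Tyrobp was then -0.63 rather than -0.31, and Fcer1g 0.54 rather than 0.92. Same-numbered replicates correlated at -0.078 to 0.071 in their deviations, and different-numbered ones at -0.082 to 0.083. Between RANKL and RANKL plus rmCst6 the same-numbered values were 0.025, 0.065 and 0.071, and the different-numbered ones -0.064 to 0.0047. With so few libraries, these values cannot settle whether the numbers pair the libraries. The replicate block changed no member's call (9, 9 and 8 members called, and 9358, 9354 and 9267 genes). Values near 0, those of Oscar and Siglec15 outside RANKL, are limited by the unknown depth.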
